A study of Mus musculus with 7 samples.

Results

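The interferon response and major histocompatibility complex (MHC) genes described here are 64 of the 9294 genes measured in a comparison of paracardial fat (pCF) with intra-abdominal fat (iVF) of mice. They were chosen by symbol, with earlier results of these data known. Their platform symbols begin with H2-, Ifi, Ifit, Isg, Oas, Irf, Gbp, Stat and a digit, Mx and a digit, Irgm, Ifn, Tap and a digit or Trim, or are Usp18, Rsad2, Cd74, B2m, Ciita or Bst2, and symbols ending in -ps were left out. Of the 64, 14 are MHC genes, 38 are interferon genes and 12 are Trim genes, a family of which only some members respond to interferon, so these are given apart. Probes that carry a fitting symbol beside another symbol, that of Cd74 among them, name no single gene and were left out. B2m, H2-K1, Tap2, the class II chain genes H2-Aa and H2-Ab1, and the Mx genes were not analysed here.

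Both depots came from wild-type male mice of the C57 strain, with no age, treatment or further allele in the labels. Total RNA of paracardial fat, the depot beside the heart, was measured on 4 Affymetrix arrays and that of intra-abdominal fat on 3. The sample titles call the arrays biological replicates, but whether each array had an animal of its own is not stated. The p-values therefore reflect only how far these arrays spread, and how much of that lies between animals is not known. Each value is the deposited log2 value of 1 probe on 1 array, and differences are paracardial minus intra-abdominal on that scale.

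Markers of several cell types moved with the depot. The summed level (log2) of 7 measured adipocyte markers of 10 listed was, in paracardial against intra-abdominal fat, 9.07 to 14.73 against 18.30 to 19.41, and 4 of the 7 were lower in paracardial fat by the test used below. Paracardial arrays 1 and 2 had the lowest adipocyte sums, 9.07 and 9.29. The median of the 7 markers on these arrays was 6.14 and 6.26, close to the 6.06 and 6.01 of all genes. It was 9.92 and 9.73 on paracardial arrays 3 and 4 and 14.95 to 16.45 in intra-abdominal fat. The sums of 5 thymocyte markers of 8 were 16.69 to 19.63 against 11.25 to 16.11, with 2 markers higher. Intra-abdominal array 1 held the 16.11 and stood apart from 11.25 and 11.70, and Cd1d1, 1 of the 5, had a difference of -3.29 (adjusted p = 0.0578, limma). Cd8b1, another of the 5, gave most of the sum on each paracardial array and on intra-abdominal array 1. It was at 17.28, 16.25, 17.43 and 19.09 against 15.98, 10.50 and 9.06 and did not pass (0.0862). On intra-abdominal array 3 Cd1d1 (11.37) gave most of the sum. The sums of 6 thymic epithelium markers of 8 were 14.63 to 16.88 against 13.42 to 15.34, with 4 higher. Ctsl, 1 of the 6, gave most of each sum, and its values overlapped between the depots. The sums of 3 T cell markers of 8 were 10.77 to 13.93 against 6.94 to 9.51, with 2 higher, and those of 3 endothelium markers of 6 were 7.06 to 9.45 against 13.09 to 15.82, with 2 lower. The sums were 9.12 to 12.81 against 10.94 to 14.87 for 6 macrophage markers of 9, 7.69 to 9.28 against 7.18 to 7.62 for 4 B cell markers of 7 and 7.69 to 8.29 against 7.68 to 9.17 for 4 dendritic cell markers of 7, with no marker past the threshold. The NK cell marker Gzma, the only 1 of 5 measured, was at 8.50, 9.29, 9.88 and 11.17 against 6.32, 6.11 and 6.38 and was higher by 3.44 (0.0203), and 3 plasma cell markers of 4, with sums of 9.61 to 11.85 against 9.55 to 10.19, and 2 mesothelium markers of 4, with sums of 6.69 to 6.87 against 6.65 to 7.03, did not pass. The arrays also fall into sets by their highest deposited value, 19.93 on paracardial array 4 and intra-abdominal array 3 and 19.81 to 19.84 on the other 5, so some differences are also given among the 5 arrays and between the 2.

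Interferons are secreted proteins by which cells warn each other of viruses. Type I interferons bind the receptor made of Ifnar1 and Ifnar2, and STAT proteins activated there act with Irf9 on interferon-stimulated response elements (ISREs) of antiviral genes such as Isg15, Ifit1, Rsad2 and the Oas genes. Type II interferon acts in part through Irf1, raises the guanylate-binding proteins and induces Ciita, the master regulator of MHC class II genes. MHC class I molecules show peptides from inside the cell to cytotoxic T cells after Tap1 and Tap2 have carried them into the endoplasmic reticulum. Class II molecules show peptides of engulfed protein on macrophages, dendritic cells, B cells and thymic epithelium.

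Promoter stretches of 6 members are shown because they hold elements through which such genes are known to be switched on, and because the differences of these genes run from the most negative of the members, Ifitm2, to positive ones. Each is the 150 bases before a RefSeq start (assembly GRCm38.p6), 5′ to 3′ along the gene's strand. Capitals mark the ISRE core, read here as GAAA, any 2 bases and GAAA again, on either strand, in the first 4 and the Y box core GATTGG, on either strand, in the last 2. The Y box is part of the promoter module of class II genes and binds the factor NF-Y. Of the starts of Stat4, 1 with a match is shown, and the stretch before another (chr1:51986998-51987147) holds no match.
Isg15 (chr4:156200819-156200968, minus strand): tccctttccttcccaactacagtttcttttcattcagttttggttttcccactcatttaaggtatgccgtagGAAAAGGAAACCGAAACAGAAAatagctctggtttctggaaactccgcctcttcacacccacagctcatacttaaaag
Ifit1 (chr19:34640739-34640888, plus strand): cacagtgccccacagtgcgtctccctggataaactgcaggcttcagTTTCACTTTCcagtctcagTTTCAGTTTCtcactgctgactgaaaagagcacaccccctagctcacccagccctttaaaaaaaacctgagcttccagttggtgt
Stat4 (chr1:52008090-52008239, plus strand): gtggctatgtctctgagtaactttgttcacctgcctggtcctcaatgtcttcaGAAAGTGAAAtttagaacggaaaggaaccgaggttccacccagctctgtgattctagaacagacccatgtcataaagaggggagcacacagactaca
Ifitm2 (chr7:140955962-140956111, minus strand): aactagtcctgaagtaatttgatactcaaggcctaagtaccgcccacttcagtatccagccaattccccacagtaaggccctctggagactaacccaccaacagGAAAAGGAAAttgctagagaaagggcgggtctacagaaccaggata
H2-Eb1 (chr17:34305717-34305866, plus strand): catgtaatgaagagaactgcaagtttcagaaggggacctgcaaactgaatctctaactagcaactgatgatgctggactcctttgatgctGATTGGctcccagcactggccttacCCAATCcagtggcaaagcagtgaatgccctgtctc
H2-Eb2 (chr17:34325525-34325674, plus strand): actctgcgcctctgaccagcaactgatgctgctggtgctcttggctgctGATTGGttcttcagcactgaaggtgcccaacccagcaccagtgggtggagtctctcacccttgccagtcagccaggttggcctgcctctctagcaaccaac

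RefSeq promoter windows of 300 bases, from 250 before to 50 after the start, were found for 49 of the 64 members, 56 windows in all. The ISRE core occurred in 17 of the 56 (30.4%) against 3.44% of all 32851 windows, with 14 of 36 windows of interferon genes, 3 of 9 of Trim genes and 0 of 11 of MHC genes. In Isg15 the matches at -78, -72 and -66 from the start overlap one another, and in Ifit1 they lie apart at -104 and -85. The Y box core occurred in 8 of the 11 MHC windows (72.7%) against 16.1% of all. Those 8 belong to the class II genes H2-Eb1, H2-Eb2, H2-DMa, H2-DMb1 and H2-Oa and to H2-D1, H2-Q4 and Tap1. The GAS core TTCNNNGAA, the palindrome that STAT dimers bind, occurred in 12 of 56 member windows (21.4%) against 8.3% of all. The 17 genes with an ISRE core had depot differences from -4.44 (Ifitm2) to 1.67 (Stat4), 10 above and 7 below 0, with a median of 0.06. A match of letters is a description of these windows and not evidence of binding.

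Of the 64 genes, 1 was higher in paracardial fat and 0 were lower at an adjusted p under 0.05 (limma, Benjamini-Hochberg over all genes), where 9.16% of all genes passed, 6.25% higher and 2.91% lower. At an unadjusted p under 0.05 there were 8 members, where 24.4% of all genes passed. The one gene was Usp18, the protease that removes Isg15 from proteins and dampens signalling at the type I receptor. The depots did not overlap for 14 members, 11 higher and 3 lower in paracardial fat, where 26.7% of all genes did not overlap, 18.0% higher and 8.78% lower. A missed threshold does not show that the depots were alike. The 95% interval of the difference lay wholly between -2 and 2 for 41 of the 64, beside 6247 of all 9294 genes. The median difference was 0.46 for MHC genes, 0.22 for interferon genes and -0.01 for Trim genes, beside 0.13 for all genes. The medians of MHC, interferon and all genes were 0.29, -0.01 and 0.01 after repeated quantile normalization, 0.30, 0.06 and -0.02 after centring on array medians and 0.32, 0.07 and 0.04 after cyclic loess. With the dimmest 50% of genes dropped they were 0.40, 0.35 and 0.45, so that both lists lay below all genes.

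**Figure D1:**
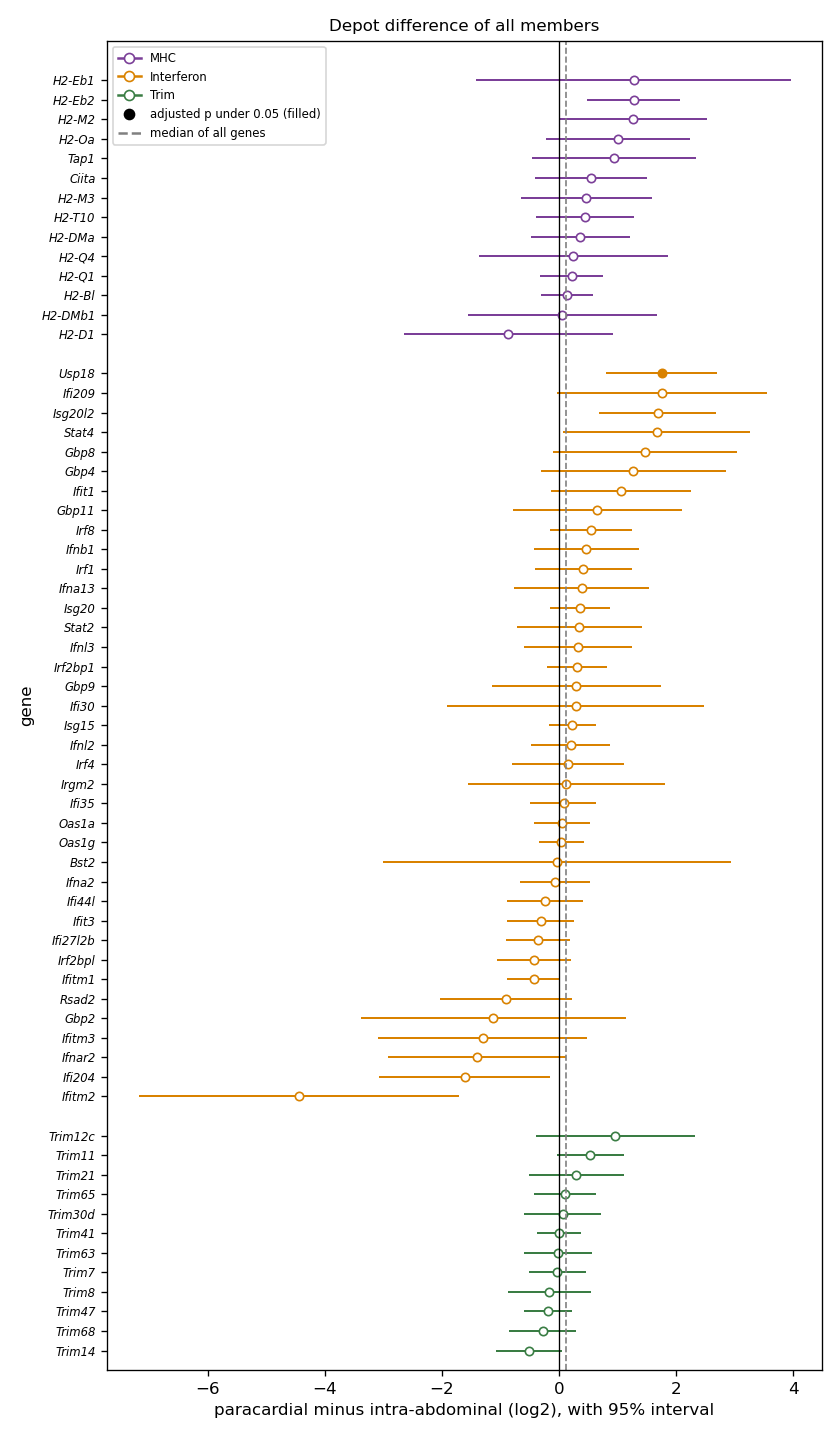
Difference of each member between paracardial and intra-abdominal fat on the log2 scale with its 95% interval, from limma over 4 and 3 arrays. Usp18, at 1.76, passed an adjusted p under 0.05, and Ifitm2 lies farthest from 0 at -4.44.

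No MHC gene passed the threshold in limma, where 9.16% of all genes did. Of the 14, 2 (H2-M2 and H2-Eb2) had an unadjusted p under 0.05, where 24.4% of all genes did. Differences were above 0 for 13 of the 14, beside 5628 of all 9294 genes. The depots did not overlap for 3 of the 14, where 26.7% of all genes did not overlap. In bulk tissue, fewer cells of a type and less RNA per cell cannot be told apart. Class I genes are close copies of one another, and a probe for one may take signal from others, so single class I values are uncertain.

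H2-D1, a classical class I chain carried by nearly all nucleated cells, had log2 values of 8.81, 8.53, 9.70 and 10.82 in paracardial fat (arrays 1 to 4, in this order throughout) and 9.64, 9.65 and 11.68 in intra-abdominal fat (arrays 1 to 3). The depots overlapped, with the lowest values on paracardial arrays 1 and 2 and the highest on intra-abdominal array 3. Its difference of -0.86 (95% interval -2.62 to 0.90, adjusted p = 0.542, limma) was the only one below 0 among the 14 MHC genes. Tap1, the peptide transporter subunit, was at 6.88, 6.89, 7.43 and 9.12 in paracardial and 6.74, 6.28 and 6.90 in intra-abdominal fat. Paracardial array 4 stood alone, and arrays 1 and 2 lay within the intra-abdominal range. The difference was 0.94 ± 0.58 (SE, adjusted p = 0.391), 0.56 among the 5 arrays and 2.21 between the 2.

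H2-M2, a nonclassical class I chain, was at 6.69, 6.49, 7.62 and 8.50 against 6.48, 5.73 and 5.97. The depots did not overlap, by a margin of hundredths between paracardial array 2 and intra-abdominal array 1. Its difference was 1.26 ± 0.52 (adjusted p = 0.199). H2-Q4 (0.25), H2-M3 (0.47), H2-Q1 (0.22) and the entries H2-T10 (0.44) and H2-Bl (0.14), which RefSeq lists as transcribed pseudogenes, had adjusted p from 0.503 to 0.858.

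H2-Eb1, the beta chain of the class II molecule I-E, was at 10.14, 9.70, 10.78 and 12.54 in paracardial fat, a mean of 10.79 ± 1.25 (SD, n = 4). In intra-abdominal fat it was at 9.09, 7.60 and 11.85, a mean of 9.51 ± 2.16 (SD, n = 3). The depots overlapped because intra-abdominal array 3 lay above 3 of the 4 paracardial arrays. The difference was 1.28 with an interval of -1.39 to 3.94 (adjusted p = 0.545), 1.86 among the 5 arrays and 0.69 between the 2. The macrophage sum was also highest of its depot on paracardial array 4, at 12.81, and on intra-abdominal array 3, at 14.87. So were the dendritic cell sum, at 8.29 and 9.17, and the thymic epithelium sum, at 16.88 and 15.34. On intra-abdominal array 3 the dendritic cell sum came mostly from Itgax (8.64) and the thymic epithelium sum from Ctsl (15.33). Xcr1 (4.14) and Siglech (5.12) were lowest of their depot there, and Cd209a (6.97) was not. Foxn1 (4.36), Psmb11 (5.79), Krt5 (6.38), Krt8 (5.48) and Ly75 (5.34) were lowest of their depot there too. The B cell sum was highest of its depot on paracardial array 4, at 9.28, and on intra-abdominal array 2, at 7.62. Their part in the result was not tested.

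H2-Eb2, another class II beta chain gene, was at 6.38, 6.07, 6.46 and 7.25 against 5.38, 5.51 and 4.90. All 4 paracardial arrays lay above all 3 intra-abdominal arrays. The difference of 1.28 ± 0.33 (interval 0.50 to 2.06) did not pass (adjusted p = 0.059), and it passed in 5 of 19 alternatives. Those were repeated quantile normalization (adjusted p = 0.0251, where 9.79% of all genes passed), centring on array medians (0.0462, 10.7%) and cyclic loess (0.0441, 11.0%). The others were array weights (0.0182, 23.9%) and the array set fitted as a block (0.0476, 17.8%). H2-Oa, a subunit of the inhibitor of class II peptide loading, was at 5.50, 5.44, 6.11 and 7.19 against 5.45, 5.34 and 4.35. Paracardial array 4 was the highest and intra-abdominal array 3 the lowest of the 7, and paracardial array 2 fell just inside the intra-abdominal range. Its difference of 1.01 (adjusted p = 0.291) was 0.29 among the 5 arrays and 2.84 between the 2.

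The peptide loading genes H2-DMa and H2-DMb1 differed by 0.37 (adjusted p = 0.567) and 0.06 (0.971). H2-DMb1 was the MHC gene whose sign differed between the array sets, 0.47 within 5 arrays and -0.43 within 2. Ciita was at 5.51, 5.60, 5.72 and 6.95 in paracardial and 5.44, 5.11 and 5.64 in intra-abdominal fat. Paracardial array 4 stood above the rest, arrays 1 and 2 lay inside the intra-abdominal range, and the difference of 0.55 (interval -0.39 to 1.49) did not pass (adjusted p = 0.467).

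**Figure D2:**
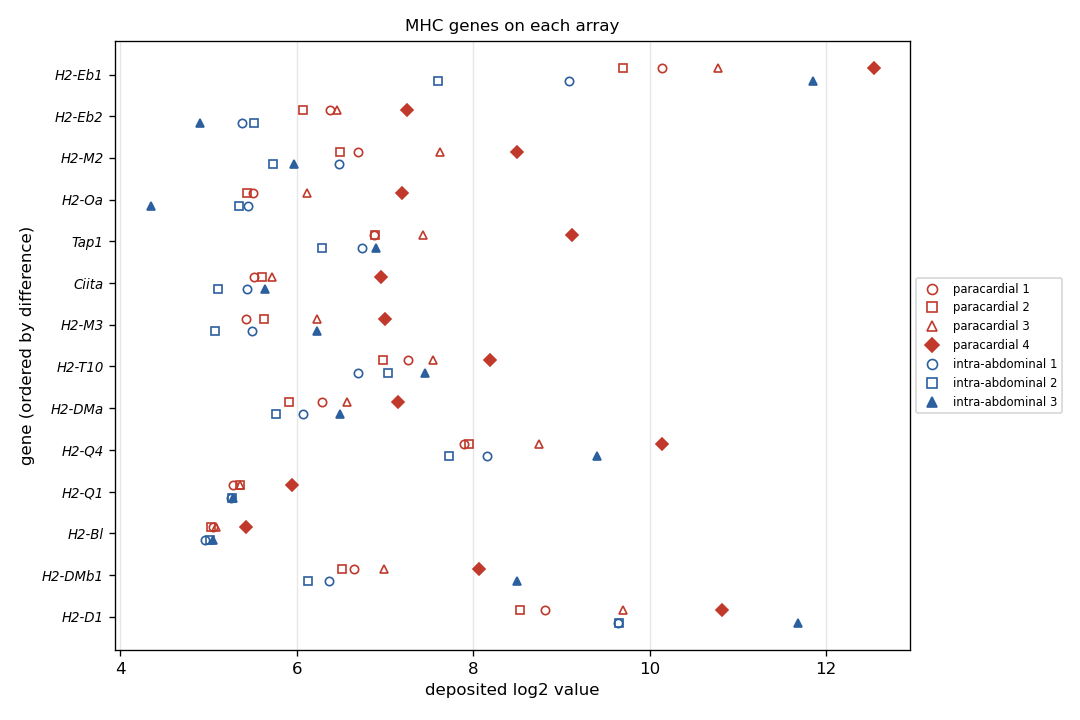
Deposited log2 value (x axis) of each MHC gene (y axis) on 4 paracardial and 3 intra-abdominal arrays, with the arrays of the higher ceiling marked. Paracardial array 4 is the highest paracardial symbol in 14 of 14 genes and intra-abdominal array 3 the highest intra-abdominal one in 11 of 14.

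Paracardial array 4 gave the highest of the 4 paracardial values for 14 of 14 MHC genes, 26 of 38 interferon genes and 7 of 12 Trim genes, where this held for 44.1% of all genes. Intra-abdominal array 3 gave the highest of the 3 intra-abdominal values for 11 of 14, 25 of 38 and 5 of 12, against 46.4% of all genes. The median of the MHC genes was 6.52, 6.28, 6.78 and 7.66 in paracardial fat, in array order, and 6.22, 5.74 and 6.36 in intra-abdominal fat. For interferon genes it was 6.49, 6.50, 6.79 and 7.47 against 6.05, 5.76 and 6.55. The median of all genes ran from 6.01 to 6.46 in paracardial and from 5.96 to 6.09 in intra-abdominal fat, and it too was highest on paracardial array 4.

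**Figure D3:**
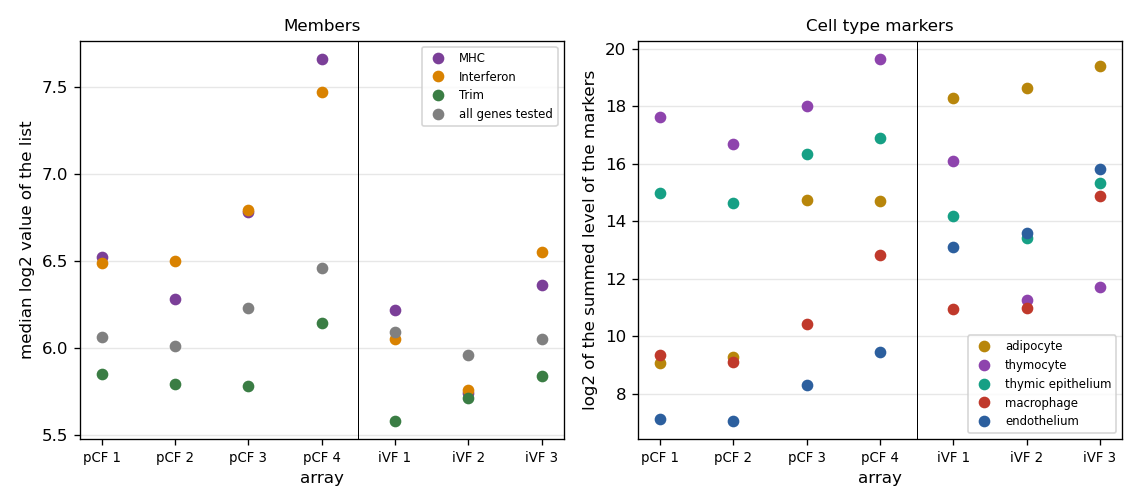
Median log2 value of the MHC, interferon and Trim genes and of all genes on each of the 7 arrays, and the log2 of the summed level of cell type markers on the same arrays. The MHC and interferon medians are highest on paracardial array 4, at 7.66 and 7.47, where the median of all genes, at 6.46, and the thymocyte sum, at 19.63, are also highest.

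Of the interferon genes, the 5 ligands did not pass, where 9.16% of all genes did. Differences were -0.06 for Ifna2, 0.39 for Ifna13, 0.47 for Ifnb1, 0.20 for Ifnl2 and 0.33 for Ifnl3, with adjusted p from 0.498 to 0.913 (limma). Ifnb1, the interferon made first in many infected cells, was at 5.55, 5.65, 4.50 and 4.43 in paracardial and 4.64, 4.47 and 4.57 in intra-abdominal fat. Paracardial arrays 1 and 2 stood above the other 5. All 5 ligands were dim, with means over the 7 arrays of 4.29 (Ifna13) to 4.85 (Ifnl3). Of all genes, 1.98% (Ifna13) to 14.9% (Ifnl3) had a mean at or below theirs. Values this low do not show that the ligands were expressed. Ifna genes are close copies of one another, as are Ifnl2 and Ifnl3, so their probes may share signal. Ifnar2, the receptor chain, was at 8.06, 7.92, 9.14 and 9.71 against 9.27, 9.83 and 11.23, and the depots overlapped only through paracardial array 4. Its difference was -1.40 ± 0.63 with an interval of -2.90 to 0.10 (adjusted p = 0.234), and it passed with cyclic loess (0.039) and array weights (0.0366).

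None of the 5 STAT and interferon regulatory factors passed, where 9.16% of all genes did. All 5 differences were above 0, beside 5628 of all 9294 genes. Paracardial array 4 was the highest of the 7 for all 5, where this held for 30.1% of all genes. Stat2, which carries the type I signal, was at 7.0, 6.87, 7.0 and 8.44 against 6.56, 7.0 and 7.36, a difference of 0.35 (adjusted p = 0.683). Irf1, a target and mediator of type II interferon, was at 6.53, 6.64, 6.95 and 7.83 against 6.62, 6.43 and 6.64, a difference of 0.42 (0.514). In both genes paracardial array 4 was the highest of the 7 and the depots overlapped. Irf8, a factor of macrophages, dendritic cells and B cells, was at 6.45, 6.45, 6.60 and 7.35 against 6.14, 5.90 and 6.45. Paracardial arrays 3 and 4 lay above the intra-abdominal range, and the difference of 0.55 had an interval of -0.14 to 1.24 (0.314). Irf4, a factor of lymphocytes, differed by 0.15 (0.852), and by -0.18 among the 5 arrays of the lower ceiling.

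Stat4, which transmits interleukin signals in T and NK cells, was at 6.64, 6.54, 6.86 and 9.14 against 5.97, 5.44 and 5.47, without overlap and with paracardial array 4 far above the rest. The difference of 1.67 ± 0.66 (adjusted p = 0.183) was 0.98 among the 5 arrays and 3.67 between the 2. Without paracardial array 4 it was 1.05 and passed (0.0491). The T cell marker sum was also highest, at 13.93, on that array, as was the NK cell marker Gzma, at 11.17, and their part in the result was not tested. Irf2bp1 and Irf2bpl, which the Irf prefix takes in, differed by 0.31 and -0.42 (0.447 and 0.388).

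The group of induced effectors, which takes in Isg20l2 by its prefix, numbered 25. Of these, Usp18 was higher in paracardial fat and the others did not pass, where 9.16% of all genes passed. Usp18 was at 6.63, 6.86, 7.50 and 8.19 in paracardial fat, a mean of 7.30 ± 0.70 (SD, n = 4), and at 5.52, 5.56 and 5.54 in intra-abdominal fat, a mean of 5.54 ± 0.02 (SD, n = 3). The depots stood apart and the intra-abdominal arrays were nearly equal. These intra-abdominal values were dim, below the median of all genes on the same arrays (6.09, 5.96 and 6.05). The difference was 1.76 ± 0.39 (interval 0.83 to 2.68, adjusted p = 0.0396, limma), 1.46 among the 5 arrays and 2.65 between the 2. The call was lost without paracardial array 1 (adjusted p = 0.0605), 2 (0.0697) or 3 (0.1) and without intra-abdominal array 1 (0.092), 2 (0.137) or 3 (0.0839). It held without paracardial array 4 (0.0398). In these fits 2.11%, 3.64%, 4.24% and 7.28% of all genes passed without paracardial array 1, 2, 3 or 4, and 7.02%, 1.99% and 8.96% without intra-abdominal array 1, 2 or 3. Fitted on the 5 arrays alone, Usp18 had an adjusted p of 0.058, where 10.1% of all genes passed. With paracardial arrays 1 and 2, lowest in adipocyte markers, left out it was 0.0902, where 0.0108% of all genes passed, and with the replicate block it was 0.0894, where 0.0% passed. Over 20 alternatives the difference was 1.34 to 2.31, and 11 made the call. Among these were the filters on the dimmest 25% and 50% of genes, the trended robust fit and the mean over probes, in which 13.6%, 19.5%, 8.48% and 9.12% of all genes passed. The mean over probes and the platform symbols, also among these, reuse the Usp18 values of the main fit and are no separate check of it.

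Isg15, the ubiquitin-like protein that Usp18 removes, was at 5.23, 5.38, 5.38 and 5.38 against 5.20, 5.09 and 5.04. The depots did not overlap, by little, and the difference of 0.23 had an interval of -0.15 to 0.61 (adjusted p = 0.452). Ifit1, which binds viral RNA ends, was at 5.96, 6.47, 6.01 and 7.58 against 5.37, 4.84 and 6.12, a difference of 1.06 ± 0.49 (0.252). Intra-abdominal array 3 lay above paracardial arrays 1 and 3. It passed with array weights (0.0414) and when the array set was a block (0.0245). Ifit3, of the same family, was at 7.42, 6.78, 6.71 and 6.79 against 7.16, 7.17 and 7.39, a difference of -0.31 (0.476), with paracardial array 1 apart from the other 3.

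Rsad2, or viperin, which makes a chain-terminating nucleotide, was at 5.21, 5.39, 5.35 and 6.0 against 5.61, 6.11 and 7.46. Intra-abdominal array 3 was the highest, and the difference of -0.90 had an interval of -2.01 to 0.20 (adjusted p = 0.3). Bst2, the tether that holds budding virus, was at 7.39, 7.40, 8.06 and 11.21 against 6.70, 8.40 and 10.52. It varied more within each depot than between them, with a difference of -0.03 and an interval of -2.98 to 2.93 (0.995). Oas1a and Oas1g, of the family that senses double-stranded RNA, differed by 0.06 and 0.04 (0.888 and 0.9), and the value of Oas1g was the same on 6 of the 7 arrays. Isg20, an RNA exonuclease, differed by 0.36 (0.352).

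Interferon-induced GTPases, which attack vacuoles of intracellular microbes, had 5 of 6 differences above 0, beside 5628 of all 9294 genes. None passed the threshold, where 9.16% of all genes did. Gbp4 was at 8.46, 8.49, 8.73 and 10.74 against 8.17, 7.01 and 8.32, and Gbp8 at 7.75, 7.71, 8.02 and 10.03 against 7.54, 6.24 and 6.94. In both the depots did not overlap, paracardial array 4 was far above the other paracardial arrays, and intra-abdominal array 2 was lowest. Their differences were 1.27 ± 0.65 (adjusted p = 0.303) and 1.47 ± 0.65 (0.226). Gbp2 was at 7.30, 7.59, 7.84 and 9.58 against 8.24, 8.04 and 11.32, with the highest value on intra-abdominal array 3 and a difference of -1.12 (interval -3.37 to 1.13, adjusted p = 0.537). Gbp9 (0.30), Gbp11 (0.66), a transcribed pseudogene in RefSeq, and Irgm2 (0.13) had adjusted p from 0.56 to 0.938. Gbp genes include close copies, so their probes may share signal.

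The Ifitm genes, whose membrane proteins block virus entry, had all 3 differences below 0, beside 3666 of all 9294 genes. Ifitm2 was at 6.0, 6.29, 8.15 and 9.60 in paracardial and 10.38, 11.64 and 13.82 in intra-abdominal fat. The depots did not overlap, and paracardial arrays 1 and 2 were lowest. Its difference of -4.44 ± 1.14 (interval -7.16 to -1.72) was the most negative of the 64 and did not pass (adjusted p = 0.0602). It was -4.20 among the 5 arrays and -4.23 between the 2, and it passed in 7 of 20 alternatives, with adjusted p from 0.0048 to 0.269 over all 20. The adipocyte sums were likewise lowest on paracardial arrays 1 and 2 and highest, at 19.41, on intra-abdominal array 3. The endothelium sums were 7.11, 7.06, 8.31 and 9.45 against 13.09, 13.58 and 15.82, also lowest on paracardial arrays 1 and 2 and highest on intra-abdominal array 3. The part of either in the result was not tested. Ifitm3 was at 8.44, 7.85, 10.02 and 10.26 against 9.55, 10.31 and 11.49, a difference of -1.30 ± 0.74 (0.353), and Ifitm1 differed by -0.43 (0.2).

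The Ifi200 genes, which encode DNA-binding proteins of innate immunity, did not run one way. Ifi204 was at 7.15, 7.40, 8.53 and 8.88 against 8.67, 9.55 and 10.57, overlapping only through paracardial array 4, with a difference of -1.61 ± 0.61 (adjusted p = 0.162). It passed with repeated quantile normalization (0.0457), cyclic loess (0.0357) and array weights (0.0252). Ifi209 was at 7.67, 7.48, 8.81 and 10.50 against 6.66, 6.61 and 7.30, without overlap, a difference of 1.76 ± 0.74 (0.21). Of the remaining genes, Isg20l2, a ribosome-processing exonuclease related to Isg20 in sequence, was at 7.33, 6.81, 7.39 and 8.47 against 6.15, 5.47 and 5.81. All paracardial arrays lay above all intra-abdominal arrays. The difference of 1.69 ± 0.41 (interval 0.71 to 2.67) did not pass (adjusted p = 0.0524) and passed in 8 of 20 alternatives, with adjusted p from 0.012 to 0.185 over all 20.

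Ifi30, the thiol reductase that opens proteins for class II presentation, was at 9.19, 8.84, 9.79 and 11.52 against 9.14, 8.21 and 11.29. Paracardial array 4 and intra-abdominal array 3 were the highest of the 7, and the difference was 0.29 (adjusted p = 0.887). Ifi35, Ifi44l and Ifi27l2b differed by 0.08, -0.24 and -0.36 (adjusted p from 0.387 to 0.878).

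**Figure D4:**
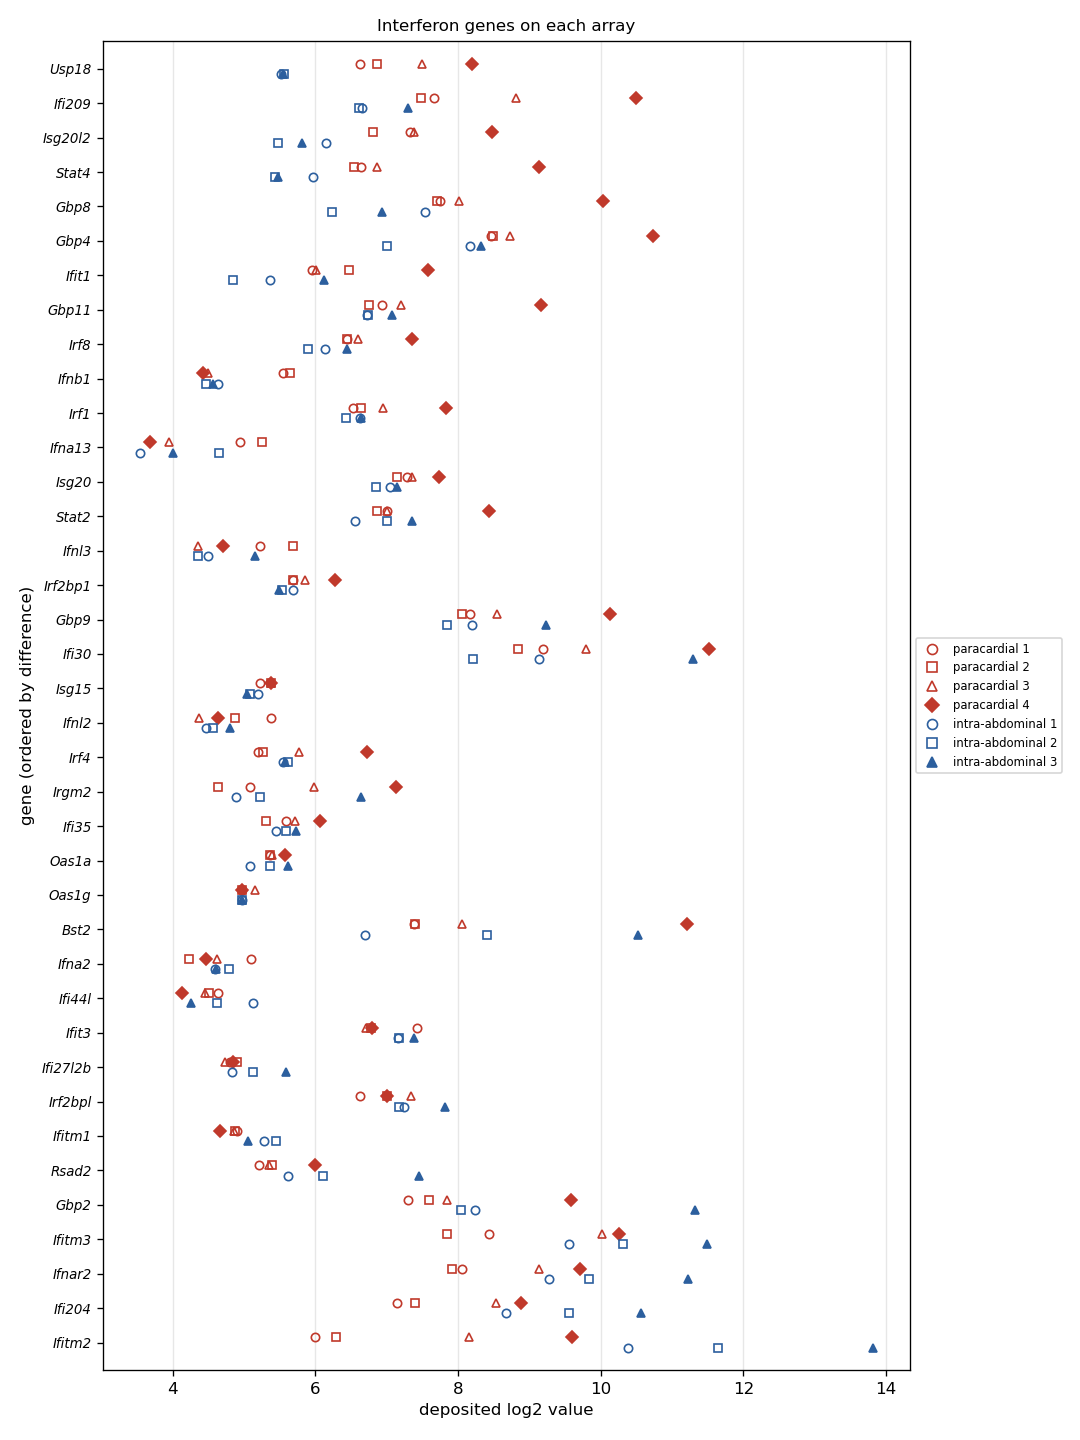
Deposited log2 value (x axis) of the 38 interferon genes (y axis) on 4 paracardial and 3 intra-abdominal arrays, with the arrays of the higher ceiling marked. Usp18 separates the depots, at 6.63 to 8.19 against 5.52 to 5.56, and Ifitm2 does so in the other direction.

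The 12 Trim genes, a family that includes many ubiquitin ligases, differed by -0.51 to 0.96. In limma 0 passed, and 0 had an unadjusted p under 0.05, where 24.4% of all genes did. For 11 of the 12 the interval of the difference lay between -2 and 2, beside 6247 of all 9294 genes. Trim12c was at 7.21, 7.08, 7.75 and 9.16 against 6.83, 6.27 and 7.41, a difference of 0.96 ± 0.56 (adjusted p = 0.365). Trim21, the cytosolic antibody receptor, was at 5.80, 5.85, 5.83 and 6.97 against 5.86, 5.71 and 5.86, so that paracardial array 4 alone stood apart, and differed by 0.30 (0.634). Trim11 and Trim47 did not overlap between depots and differed by 0.54 (0.218) and -0.18 (0.562). Trim14, an adaptor of antiviral signalling, had the most negative difference, -0.51 (0.234). The narrowest interval was that of Trim41, -0.36 to 0.37.

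Between the array sets the sign of the difference changed for 1 of 14 MHC, 6 of 38 interferon and 4 of 12 Trim genes, beside 2593 of 9294 genes. The median difference of MHC genes was 0.37 within the 5 arrays and 0.74 within the 2, that of interferon genes 0.18 and 0.28, and that of Trim genes -0.02 and 0.08, beside 0.06 and 0.16 for all genes. Each value for the 2 compares 1 array with 1 array and has no error of its own.

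**Figure D5:**
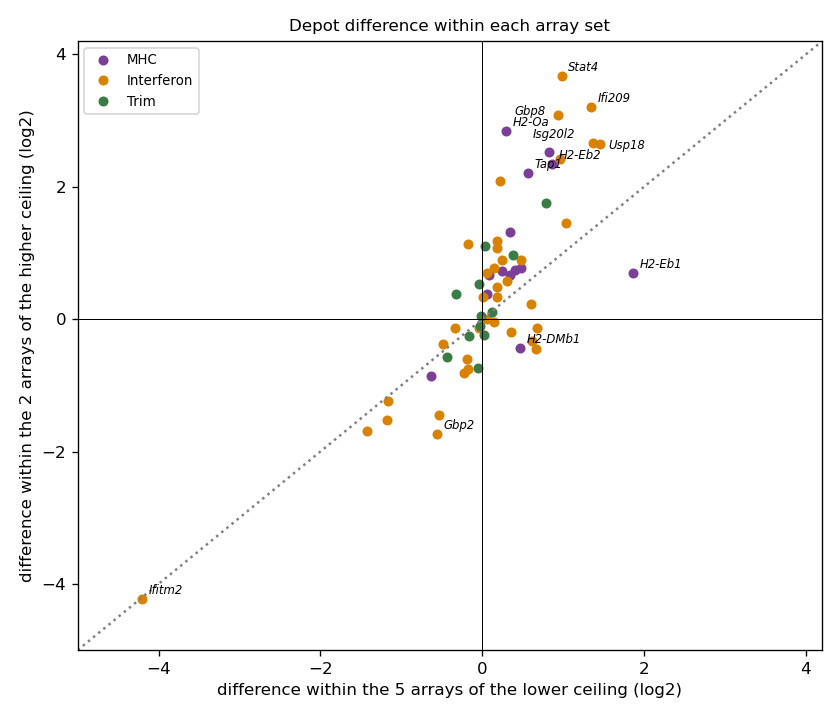
Depot difference (log2) of each of the 64 members within the 5 arrays of the lower ceiling (x axis) and within the 2 arrays of the higher ceiling (y axis). Ifitm2 lies at -4.20 and -4.23, Stat4 at 0.98 and 3.67, and H2-Eb1 at 1.86 and 0.69.

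Other genes of these pathways outside the symbol rule numbered 35 measured of 86 listed. In limma 0 passed in either direction, where 9.16% of all genes passed, and 9 had an unadjusted p under 0.05, where 24.4% of all genes did. The median difference was 0.24, beside 0.13 for all genes. The genes named next were chosen after their values were seen. Tlr3, the endosomal receptor for double-stranded RNA, differed by -1.13 ± 0.38 (adjusted p = 0.127), without overlap. Socs1, an inhibitor of receptor kinases, was at 5.22, 5.27, 5.72 and 6.03 against 5.02, 4.90 and 4.64, a difference of 0.71 (0.155), without overlap. Of the induced effectors, the immunoproteasome subunit gene Psmb8 differed by 1.74 ± 0.65 (0.157) and the GTPase gene Igtp by 1.59 ± 0.59 (0.159), and Lgals3bp, which encodes a secreted glycoprotein, by -3.29 ± 1.01 (0.0983), each without overlap. Cd1d1, which presents lipids to NKT cells, was at 6.01, 5.50, 6.09 and 7.37 against 8.03, 9.20 and 11.37. The depots did not overlap and the difference was -3.29 ± 0.83 (0.0578).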

How the data were processed

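Total RNA of 7 samples was measured on Affymetrix arrays. The authors deposited log2 values per probe. Per the submitters' processing notes these came from RMA and Affymetrix Expression Console, with no version named. Of 11949 probes, 9352 have 1 gene symbol in GEO's platform annotation, 522 have several and 2075 none, and the latter 2597 were left out. Symbols were updated through Entrez identifiers where RefSeq (GRCm38.p6) held them (5789 probes, 188 symbols changed), and the probe with the highest mean stood for each of 9294 genes. Membership followed the platform symbol.

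Differences were tested with limma 3.58.1 (R 4.3.3, lmFit and eBayes, 5 residual and 1.68 prior degrees of freedom), with Benjamini-Hochberg adjustment over all genes and a threshold of 0.05. The number of arrays limits the precision. The procedure was tested on simulated data. Alternatives were repeated normalization, centring, cyclic loess, filters on dim probes, array weights, blocks, leaving out arrays and probe rules. The probe rules (mean over probes, platform symbols) left the values of every member as in the main fit, though they are counted among the alternatives.

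Members and lists were chosen with earlier results of these data known. By rule, the text names MHC and interferon genes past the threshold, up to 4 Trim genes each way past it, and a fixed set of pathway genes (such as H2-D1, Tap1, Ciita, Stat2, Irf1, Ifnar2, Isg15, Ifit1, Gbp2 and Bst2). Other members named were chosen after their values were seen.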

Additional observations from a re-analysis of the deposited data

Results flagged for a closer look

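For 15 of the 64 members 1 paracardial array stood apart from the other 3, by a gap to the nearest array that, divided by the range of the 4, exceeded Dixon's 95% critical value. Chance flags about 1 in 20 groups, and 14.3% of all genes here met the same mark. On array 4 the ratio of gap to range was 0.859 for Ciita, 0.881 for Gbp4, 0.864 for Gbp8, 0.871 for H2-Bl, 0.885 for H2-Q1, 0.832 for Irf8, 0.844 for Oas1a, 0.921 for Stat2, 0.874 for Stat4 and 0.954 for Trim21, all with array 4 the highest. For Ifitm1 array 4 was the lowest, with a ratio of 0.835. Array 1 was the highest for Ifit3 (0.893) and the lowest for Isg15 (1.0, the other 3 arrays sharing 1 value). Array 3 was the highest for Oas1g (1.0, the other 3 sharing 1 value), and array 2 the lowest for Trim41 (0.833).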

How the results depend on the processing

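The count of 1 interferon gene past the threshold was 2 with 4 genes added by updated symbol (an alternative chosen after seeing the data) and with the dimmest 25% of genes dropped (13.6% of all genes called). It was 3 with centring on array medians (10.7%) and with the dimmest 50% dropped (19.5%), 4 with repeated quantile normalization (9.79%) and when the array set was a block (17.8%), 5 with cyclic loess (11.0%) and 7 with array weights (23.9%). It was 0 with the replicate block (0.0%), with paracardial arrays 1 and 2 left out (0.0108%) and in a fit of the 5 lower-ceiling arrays alone (10.1%). The MHC count of 0 became 1 (H2-Eb2) with repeated quantile normalization, centring, cyclic loess, array weights and the array set as a block. The MHC median difference was 0.97 without paracardial arrays 1 and 2, and the Trim median was -0.16 after centring. The MHC median of 0.46 was 0.29 to 0.32 and the interferon median of 0.22 was -0.01 to 0.07 under repeated quantile normalization, centring and cyclic loess, and they were 0.18 and 0.0 with the replicate block. Leaving out 1 array at a time gave 0 to 4 interferon genes (4 without paracardial array 4, namely Ifitm2, Isg20l2, Stat4 and Usp18, and 0 without any other single array), 0 MHC and 0 Trim genes, and medians of 0.18 to 0.7 for MHC, 0.0 to 0.33 for interferon and -0.03 to 0.03 for Trim genes. The causes were not tested. The deviations of same-numbered arrays correlated at 0.048, 0.047 and -0.5 for replicates 1, 2 and 3. Intra-abdominal array 3 is of the higher ceiling and paracardial array 3 is not. Array set and replicate number are thus mixed in these values, and they cannot decide on pairing. With the replicate block 0 of 9294 genes passed. That count cannot decide on pairing, because the block leaves few residual degrees of freedom and paracardial array 4 has a block of its own. Of the 64 genes, 55 passed under no setting, and no called value changed its direction.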

Other observations

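Ifi208, Ifi207, Ifit3b and Ifit1bl1 fit the symbol rule only under their updated symbols and are not among the 64. Ifi208, of the Ifi200 family, was at 6.47, 6.02, 6.35 and 6.91 in paracardial and 5.10, 5.16 and 5.22 in intra-abdominal fat, and was higher by 1.28 ± 0.24 (SE, adjusted p = 0.0246, limma). Ifi207, of the same family, was at 7.26, 7.57, 8.67 and 8.99 against 9.89, 10.05 and 11.55, a difference of -2.37 ± 0.59 (0.0568). Ifit3b and Ifit1bl1 differed by -0.17 (0.782) and 0.54 (0.295).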
